A study of Homo sapiens with 8 samples.

Results

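The late phase of a long K562 induction culture was examined here by setting the day 22 array against those of days 8 and 10, which makes 3 of the 8 samples of the series. K562 is a human myeloid leukaemia line whose blasts can enter the red cell lineage. All 3 samples came from cells kept in serum-free StemLineII medium with interleukin 3 at 50 ng/ml and erythropoietin at 7.5 U/ml, per the labels, so the groups share medium and cytokines and differ in the length of culture. The arrays of days 0 to 6 entered the normalization and are used beside the comparison. Of these, day 0 had neither cytokine, while days 2, 4 and 6 had both at the same doses. No arm holds a replicate: day 22 is 1 array and the earlier arm is 2 arrays from different days. The labels give no separate cultures, so p-values measure the spread between these arrays, which may be technical, and they name CD34 cells in the extraction step although all other labels name K562. The day 15 column was left out because it lay within 0.01 units of the mean of days 10 and 22 in all 621 rows. All rows of the table were used, as 207 features of 3 consecutive spots, and 67 features carry a microRNA gene symbol.

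MicroRNAs are short RNAs that guide Argonaute proteins to messenger RNAs, mostly through the seed, bases 2 to 8 of the mature strand. Members of a seed family can therefore share targets even when their genes lie on different chromosomes. In blood cells, the MIR17-92 cluster and MIR21 are known for promoting proliferation and survival of immature and malignant cells, and let-7 is known as a family that restrains growth genes and accumulates in differentiated cells. The classical red cell microRNAs of the MIR144-451A locus were not among the named features.

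The sequences below belong to the microRNAs on which the comparison turned, with the seed in capitals. They are RefSeq mature strands (GRCh38.p14), of which at least 1 was found for 65 of the 67 named features. The array table gives the gene and not the arm, so the arm shown is the one usually taken as the main product. On the plus strand of GRCh38.p14, miR-21-5p lies at chr17:59841273-59841294, miR-20a-5p at chr13:91351072-91351094 and miR-15b-5p at chr3:160404607-160404628. Likewise on the plus strand, let-7i-5p lies at chr12:62603691-62603712, miR-33a-5p at chr22:41900949-41900969 and miR-345-5p at chr14:100307876-100307897. The first set holds genes that fell, with miR-93-5p and miR-23b-3p as seed partners that did not pass.
miR-21-5p: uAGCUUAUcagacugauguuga
miR-20a-5p: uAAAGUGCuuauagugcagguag
miR-93-5p: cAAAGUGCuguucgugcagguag
miR-18a-5p: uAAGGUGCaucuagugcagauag
miR-19a-3p: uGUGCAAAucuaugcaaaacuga
miR-25-3p: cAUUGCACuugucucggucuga
miR-15a-5p: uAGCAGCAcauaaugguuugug
miR-15b-5p: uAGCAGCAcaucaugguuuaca
miR-23a-3p: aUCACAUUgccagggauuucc
miR-23b-3p: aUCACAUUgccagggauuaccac

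The second set holds the let-7 seed family, of which let-7i, let-7g and let-7e rose, followed by other genes that rose. The let-7 strands share the seed GAGGUAG and differ only outside it, at 1 to 6 of 22 positions between any pair.
let-7i-5p: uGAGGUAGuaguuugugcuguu
let-7g-5p: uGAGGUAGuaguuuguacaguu
let-7e-5p: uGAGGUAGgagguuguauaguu
let-7b-5p: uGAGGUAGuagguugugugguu
let-7d-5p: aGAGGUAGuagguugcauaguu
let-7c-5p: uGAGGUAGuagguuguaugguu
miR-98-5p: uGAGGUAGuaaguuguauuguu
miR-33a-5p: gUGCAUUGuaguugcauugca
miR-345-5p: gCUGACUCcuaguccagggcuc
miR-450a-5p: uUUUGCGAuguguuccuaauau
miR-449a: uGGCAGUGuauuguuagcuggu
miR-328-3p: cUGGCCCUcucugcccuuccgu

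The arrays differed in the range of their signal. Intensity was read as Cy3 units above the dimmest spot of the same array, since the true zero is unknown. The brightest spot stood 3358 units above the dimmest on day 8, 2098 on day 10 and 554 on day 22. The median spot stood at 46 units on day 8, 60 on day 10 and 63 on day 22. The 10 brightest features held 47.6% of the summed signal on day 8, 35.8% on day 10 and 19.0% on day 22. Day 22 thus had a flatter profile than either earlier array, with a similar middle and a much lower top. Across the 207 features the ranks of days 8 and 10 gave a Spearman rho of 0.910, against 0.706 for days 8 and 22 and 0.722 for days 10 and 22, values that describe arrays and rest on features that are not independent.

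On day 22, MIR21, MIR20A and MIR15B were 5.19-fold to 9.73-fold lower than on days 8 and 10, on values scaled by quantile normalization. On the same scale MIRLET7I, MIR33A and MIR345 were 5.46-fold to 6.24-fold higher, log2 differences of 2.64, 2.49 and 2.45. With no scaling these were 0.65, 0.50 and 0.55 and with the 75th percentile 1.05, 0.91 and 0.95, and none of MIRLET7I, MIR33A and MIR345 passed in limma under either. In limma (moderated test, Benjamini-Hochberg adjustment over 207 features, threshold 0.05), 26 features fell (12.6%) and 21 rose (10.1%). Of the 67 named features, 9 fell, 12 rose and 46 did not pass. The numbers at an unadjusted p under 0.05 were 35 lower and 39 higher. The fit has 1 residual degree of freedom, the difference between days 8 and 10, plus 1.98 borrowed from all features, and it assumes that the lone day 22 array varies like those. An exact permutation test of 1 array against 2 cannot go below p = 0.333. In limma fits without day 8 or without day 10, each compared group held 1 array, so the spread came from days 0 to 6 only. That range includes day 0, which had no cytokines. Fewer features passed in these fits in either direction, as the closing section gives.

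By size alone, 25 features (12.1%) lay at least 1 log2 unit below both earlier arrays and 16 (7.73%) at least 1 above both. Between the earlier arrays themselves, day 10 was at least 1 above day 8 in 4 features (1.93%) and at least 1 below it in 0 (0%). The median absolute difference was 0.35 for day 22 against the earlier mean and 0.17 for day 10 against day 8. The day 22 array thus stood farther from days 8 and 10 than these did from each other.

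**Figure D1:**
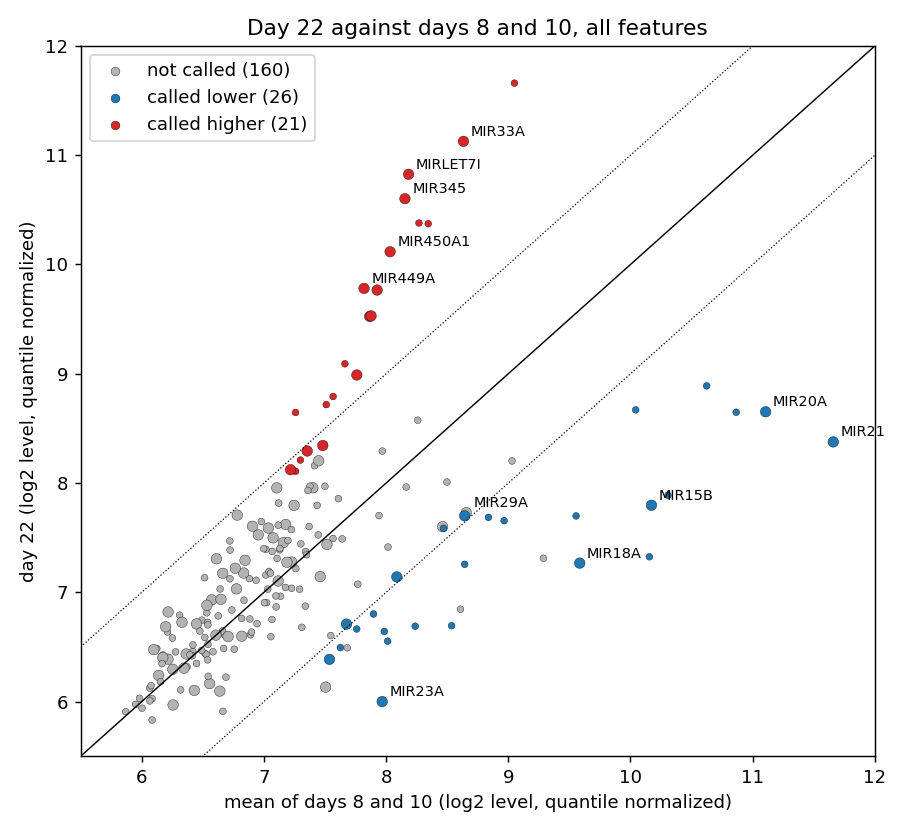
Level on day 22 (vertical axis, log2, quantile normalized) against the mean of days 8 and 10 (horizontal axis, same scale) for 207 features, large points being the named ones; the solid line marks equality and the dotted lines a difference of 1. The 26 features called lower lie below the line, out to MIR21 at 8.38 against 11.66, and the 21 called higher lie above it.

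The choice of scaling set how large the rises looked and whether they passed. All 47 called features kept their direction in 4 scalings (quantile, none, median centring and the 75th percentile). The last 3 give the same differences shifted by a constant common to all features, so they are not separate checks of direction. The 12 named features that rose had differences of 0.86 to 2.64 after quantile normalization, 0.23 to 0.70 with no scaling, 0.50 to 0.97 after median centring and 0.63 to 1.10 after scaling to the 75th percentile. Of these 12, 0 passed in limma with no scaling, 8 with median centring and 0 with the 75th percentile. The 9 named features that fell had differences of -3.28 to -0.94, -4.21 to -1.0, -3.94 to -0.73 and -3.81 to -0.60 in the same order, and 4, 9 and 3 of them passed in the last 3 scalings. MIR20A, MIR21 and MIR25 were called lower in all 4. Over all features, the split of calls was 21 higher and 26 lower after quantile normalization, 0 and 13 with no scaling, 11 and 33 with median centring and 0 and 9 with the 75th percentile. At an unadjusted p under 0.05 in limma, 2, 29 and 51 features were higher in the last 3 scalings and 46, 37 and 32 lower. Taking the median of the 3 spots in place of their mean left 0 calls in either direction, with 40 higher and 35 lower at an unadjusted p under 0.05 in limma. The median over all features moved from 0.07 to -0.13 with no scaling, to 0.14 with median centring and to 0.27 with the 75th percentile.

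**Figure D2:**
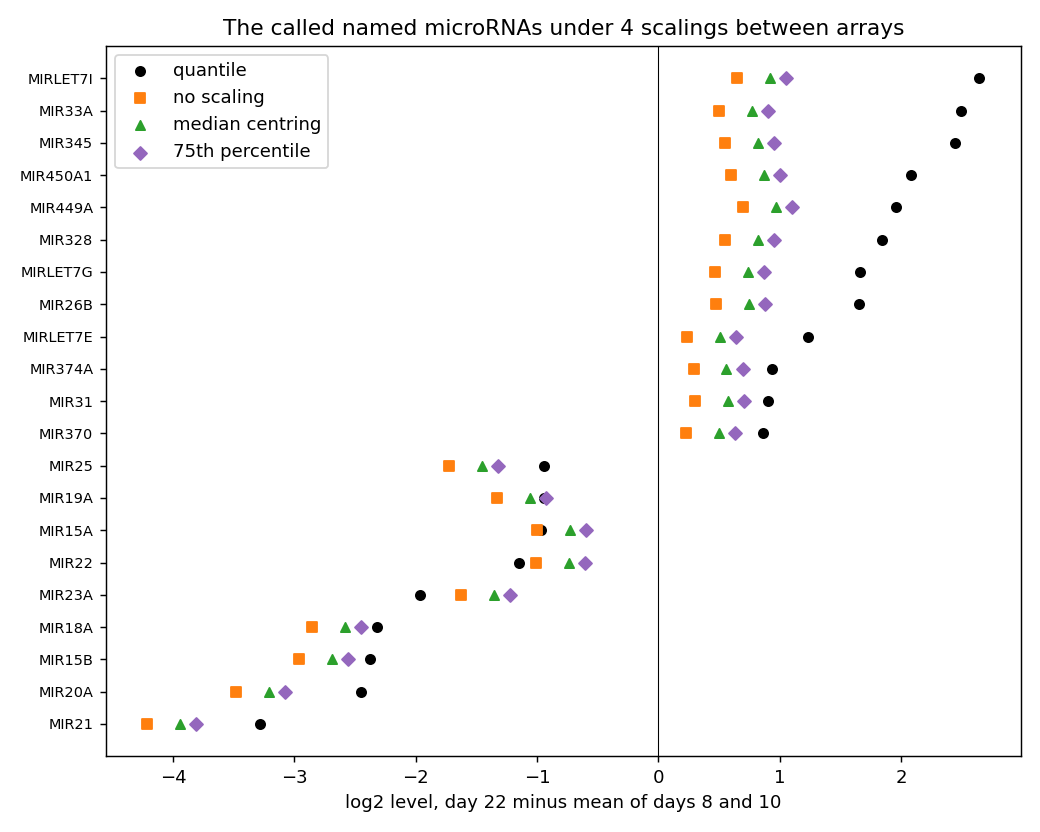
Difference between day 22 and the mean of days 8 and 10 on the log2 scale (horizontal axis) for the 21 named microRNAs that were called, under 4 scalings between arrays, 1 symbol each. No symbol crosses 0, and the rises are largest after quantile normalization, up to 2.64, against at most 1.10 under the other scalings. Those others show the same differences shifted by a constant common to all features.

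MIR21 is abundant in many tumours and is known as a repressor of PDCD4. It was the brightest of all features on day 8, at 3117 ± 239 units, and on day 10, at 1986 ± 104 units, and stood at 124 ± 13.5 units on day 22 (SD, n = 3 spots here and below, which covers spotting only). It supplied 11.2%, 7.60% and 0.746% of the signal of those arrays. MIR21 moved from rank 1 on both earlier arrays to rank 22. Its log2 difference was -3.28 ± 0.13 (SE, adjusted p = 0.0187, limma, Benjamini-Hochberg). Quantile normalization gave the 2 earlier arrays the same MIR21 level because its spots were the brightest of both, so this SE holds no spread of its own. With no scaling the difference was -4.21 and the adjusted p 0.0377 (limma, Benjamini-Hochberg).

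The MIR17-92 cluster on chromosome 13 and its paralog MIR106B-25, within an intron of MCM7 on chromosome 7, produce seed-related microRNAs that curb apoptosis and cell cycle inhibitors. Of 15 listed genes 5 were measured, of which 4 fell and 0 rose, with a list median of -0.95 against 0.07 over all features, of which 12.6% fell. That low direction is already known for this list over the whole course, so its count here is not independent evidence.

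MIR20A, from the 13q31 cluster, was second brightest on both earlier arrays, with 1804 ± 137 units on day 8, 1449 ± 101 on day 10 and 136 ± 5.86 at the end. Its difference was -2.45 ± 0.13 (SE, adjusted p = 0.0187, limma, Benjamini-Hochberg), and it was still 19th on day 22. After quantile normalization its levels on the earlier arrays were nearly equal, with day 22 at -2.47 from day 8 and -2.43 from day 10. This SE, close to the smallest of 0.131 over all 207 features, thus holds little spread of its own. MIR18A, of the same transcript, measured 709 ± 17.6, 447 ± 28.0 and 70.3 ± 4.51 units, a difference of -2.32 ± 0.14 (SE, adjusted p = 0.0187, limma, Benjamini-Hochberg). It dropped from ranks 10 and 11 to 88. Its day 22 signal lay within the 42.3 to 87.0 units that markers of foreign cells had on that array, so the size of its fall is not exact. MIR19A, of the same cluster, measured 157 ± 24.6, 162 ± 29.1 and 65.3 ± 5.03 units, and its difference was -0.95. MIR19A was already lower on day 8 than before, since its log2 level of 8.11 lay below its lowest value of 9.47 on days 0 to 6.

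In the MCM7 intron, MIR25 stood at 306 ± 1 units on day 8, 305 ± 12.1 on day 10 and 91.3 ± 4.16 on day 22, with a difference of -0.94 ± 0.13 (SE, adjusted p = 0.0354, limma, Benjamini-Hochberg). Its neighbour MIR93 stood at 301 ± 14.8, 210 ± 13.5 and 87.3 ± 6.66 units, and its difference of -0.86 ± 0.23 did not pass (SE, adjusted p = 0.103, limma, Benjamini-Hochberg). Both lay lower on day 22 than on either earlier array, and they ended at ranks 49 and 55. MIR93 had moved between days 8 and 10 already, by -0.37, which widens its SE.

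MIR15B and MIR15A share the seed AGCAGCA, target BCL2 and cyclin genes, and lie in separate clusters, each with a MIR16 copy. MIR15B measured 1035 ± 29.7, 620 ± 52.7 and 95.3 ± 4.73 units on days 8, 10 and 22, with a difference of -2.38 ± 0.26 (SE, adjusted p = 0.0275, limma, Benjamini-Hochberg). MIR15A measured 93.0 ± 9.54, 101 ± 10.0 and 52 ± 3 units, with a difference of -0.97. MIR424, of the same seed, encoded on the X chromosome and linked to monocyte maturation, had 32, 41.7 and 58.7 units and a difference of 0.29 that did not pass. The 22 positions of miR-15b-5p differ from miR-15a-5p at 4 and from miR-424-5p at 6. MIR424 lay within the range of the foreign markers on all 3 arrays.

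Among microRNAs with a known part in red cell formation, 4 of 16 listed were measured, 3 of which fell and 0 rose, with a median of -1.06, against 12.6% lower and a median of 0.07 over all features. Besides MIR15A and MIR15B, these were MIR22 and MIR96. MIR22, which targets the epigenetic regulator TET2, measured 91.3 ± 4.16, 82.7 ± 8.39 and 42.0 ± 3.46 units, a difference of -1.15 ± 0.20 (SE, adjusted p = 0.0470, limma, Benjamini-Hochberg). MIR96, a FOXO1 repressor, measured 69.3 ± 6.43, 83.3 ± 7.57 and 65.7 ± 6.66 units and did not pass, at -0.32. Both lay lower on day 22 than on either earlier array.

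MIR23A and MIR23B are paralogs from clusters on chromosomes 19 and 9, known in blood for limiting B cell development. Their mature strands differ at 1 of the first 21 positions, so probes may not tell them apart. MIR23A measured 167 ± 8.50, 112 ± 19.9 and 19.0 ± 18.5 units, a difference of -1.97 ± 0.25 (SE, adjusted p = 0.0347, limma, Benjamini-Hochberg). On day 22 it stood at rank 203 of 207, below every foreign marker, and its spots there scattered about as widely as their mean. The fall is therefore not measured in size, and its log2 difference reads a value not above background. MIR23B measured 97.3 ± 3.21, 74.3 ± 8.74 and 33.0 ± 3.61 units, and its difference of -1.37 did not pass (adjusted p = 0.0580, limma, Benjamini-Hochberg).

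**Figure D3:**
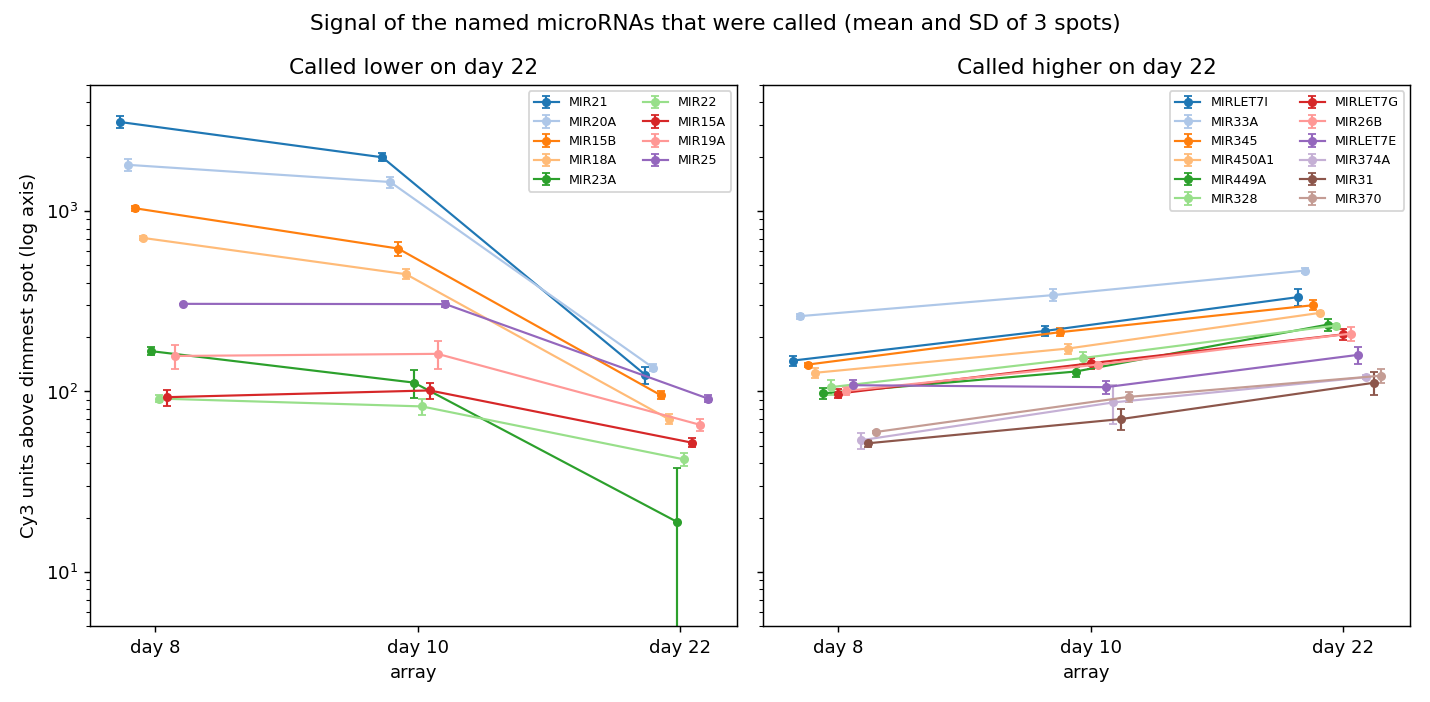
Cy3 units above the dimmest spot of each array (vertical log axis, mean and SD of 3 spots) on days 8, 10 and 22 for the 9 named microRNAs called lower (left) and the 12 called higher (right); the lower bar of MIR23A on day 22 runs off the axis. On the left MIR21 goes from 3117 and 1986 units to 124, and on the right MIR33A goes from 262 and 342 to 468.

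The calls of MIR15A, MIR19A, MIR22 and MIR25 were lost without day 8 and without day 10, and that of MIR23A without day 8, while MIR15B, MIR18A, MIR20A and MIR21 passed in both fits.

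The top of the day 8 and day 10 profiles is described next. Its features were picked by their level on those arrays, so a lower value on day 22 was favoured by the choice and supports nothing further. The 8 features above 500 units on both earlier arrays, among them MIR21, MIR20A and MIR15B, measured 73.3 to 154 units on day 22, an array with 1 feature above 500 units and 11 above 200. The brightest feature of day 22 was an unnamed one that starts at row 202, picked out after its values were seen, with 349, 413 and 537 units. MIR33A followed it.

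MIR33A lies in an intron of SREBF2 and represses the cholesterol exporter ABCA1. It measured 262 ± 8.39 units on day 8, 342 ± 25.5 on day 10 and 468 ± 15.4 at the end, the highest of the 3 arrays. It moved from ranks 23 and 16 to rank 2. Its difference was 2.49 ± 0.22 (SE, adjusted p = 0.0248, limma, Benjamini-Hochberg). MIR26B, in an intron of the phosphatase gene CTDSP1, measured 101 ± 4.73, 141 ± 3.46 and 209 ± 18.5 units, a difference of 1.65 ± 0.17 (SE, adjusted p = 0.0264, limma, Benjamini-Hochberg). Of the metabolic intron list these 2 rose, and MIR378A, in an intron of the coactivator gene PPARGC1B, was at 0.42 and did not pass. Thus 2 of the 3 measured among 6 listed rose, against 10.1% of all features and 12 of the 67 named ones. Neither MIR33A nor MIR26B passed in limma with no scaling or with the 75th percentile.

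The let-7 family had 7 of 12 listed members measured, of which 3 rose and 0 fell, with a list median of 0.56. Over all features 10.1% were higher, 12.6% lower and the median was 0.07. Over the 67 named features alone, 12 rose, 9 fell and the median was 0.30. MIRLET7I measured 148 ± 9.07 units on day 8, 217 ± 14.8 on day 10 and 333 ± 35.9 on day 22, a difference of 2.64 ± 0.18 (SE, adjusted p = 0.0187, limma, Benjamini-Hochberg). MIRLET7G measured 97.3 ± 5.77, 143 ± 9.71 and 207 ± 14.6 units, a difference of 1.66 ± 0.19 (SE, adjusted p = 0.0290, limma, Benjamini-Hochberg). The mature strands of these leading members differ at 2 of 22 positions, the closest to let-7i in the family. MIRLET7E measured 108 ± 7.57, 106 ± 9.29 and 160 ± 16.8 units, a difference of 1.23. The other 4 did not pass, with differences of 0.56 for MIRLET7B, 0.44 for MIRLET7D, 0.30 for MIRLET7C and 0.09 for MIR98. Members of 1 seed family thus ranged from 0.09 to 2.64, in the order of their day 22 signal from 71.0 units for MIR98 to 333 for MIRLET7I, with MIRLET7C at 79.7 next to MIR98. Near-identical members may share probe signal. With no scaling the list median was 0.07, and MIRLET7C and MIR98 then had negative differences of -0.08 and -0.26.

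MIR345, a gene of chromosome 14 outside the imprinted domain, measured 141 ± 3.61, 213 ± 10.7 and 301 ± 19.6 units, a difference of 2.45 ± 0.19 (SE, adjusted p = 0.0187, limma, Benjamini-Hochberg). MIR450A1, of the Xq26 cluster, measured 127 ± 7.55, 173 ± 10.8 and 273 ± 5 units, and its difference was 2.08. Its cluster neighbour MIR424 stayed between 32 and 58.7 units, as given above, so 1 of the 2 measured Xq26 genes rose. MIR449A, a seed relative of the p53 target MIR34A, measured 97.7 ± 6.66, 129 ± 7.94 and 235 ± 17.7 units, with a difference of 1.96. MIR328, known to act as a decoy for hnRNP E2 in blast crisis leukaemia cells, measured 106 ± 10.1, 153 ± 12.1 and 232 ± 6.08 units, with a difference of 1.84. The adjusted p was 0.0187 for MIR450A1 and MIR449A and 0.0264 for MIR328 (limma, Benjamini-Hochberg). MIR374A, MIR31 and MIR370 rose by less, with differences of 0.94, 0.90 and 0.86, and had 120, 112 and 122 units on day 22 against 51.7 to 93.3 before. The calls of MIR26B, MIRLET7E, MIR374A, MIR31 and MIR370 were lost without day 8 and without day 10, while the other 7 risers passed in both.

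Probes for microRNAs foreign to blood also had more units on day 22. The markers of cells foreign to these cultures (embryonic MIR367, MIR371A, MIR372 and MIR373, epithelial MIR429 and islet MIR375; 6 of 23 listed were measured) had 17 to 46.3 units on day 8, 24.7 to 56.7 on day 10 and 42.3 to 87.0 on day 22. Their summed signal was 170 units on day 8, 230 on day 10 and 365 on day 22. That of the 12 named risers was 1353, 1868 and 2772 units, and that of the let-7 family 561, 763 and 1043. All 3 sums were thus highest on day 22. For the markers, day 22 over days 8 and 10 read 2.15 and 1.59. These ratios were 2.05 and 1.48 for the named risers and 1.86 and 1.37 for let-7. The sums give no exact factor because the zero of the arrays is not known. In units, 126 of all 207 features (60.9%) lay above both earlier arrays and 46 (22.2%) below both. After quantile normalization the markers had a median difference of 0.41 (0.07 to 0.70) and 0 of 6 passed. MIR373 did pass as higher with quantile normalization over days 8, 10 and 22 only, at 0.59. It also passed with the filter on dim features, at 0.70, and MIR372 passed with an offset of 16, at 0.94. The part that the shift common to all 3 sums had in the rises was not tested.

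Over all 207 features, 103 lay above the highest marker on day 8, 110 on day 10 and 55 on day 22, when it was MIR373 at 7.60 on the log2 scale. All 21 risers were among those 55, and this level also entered their calls. Of the 9 named features that fell, 4 were above it on day 22, namely MIR15B, MIR20A, MIR21 and MIR25. MIR15B and MIR25 had at most 95.3 units there, close to the 87.0 of the highest marker, so the sizes of those falls are also uncertain. MIR21 had 124 units and MIR20A 136. MIR15A, MIR18A, MIR19A, MIR22 and MIR23A were then at or below the marker level, so the sizes of their falls are not exact. Of 67 named features 32 exceeded the highest marker on day 8, 36 on day 10 and 23 on day 22.

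**Figure D4:**
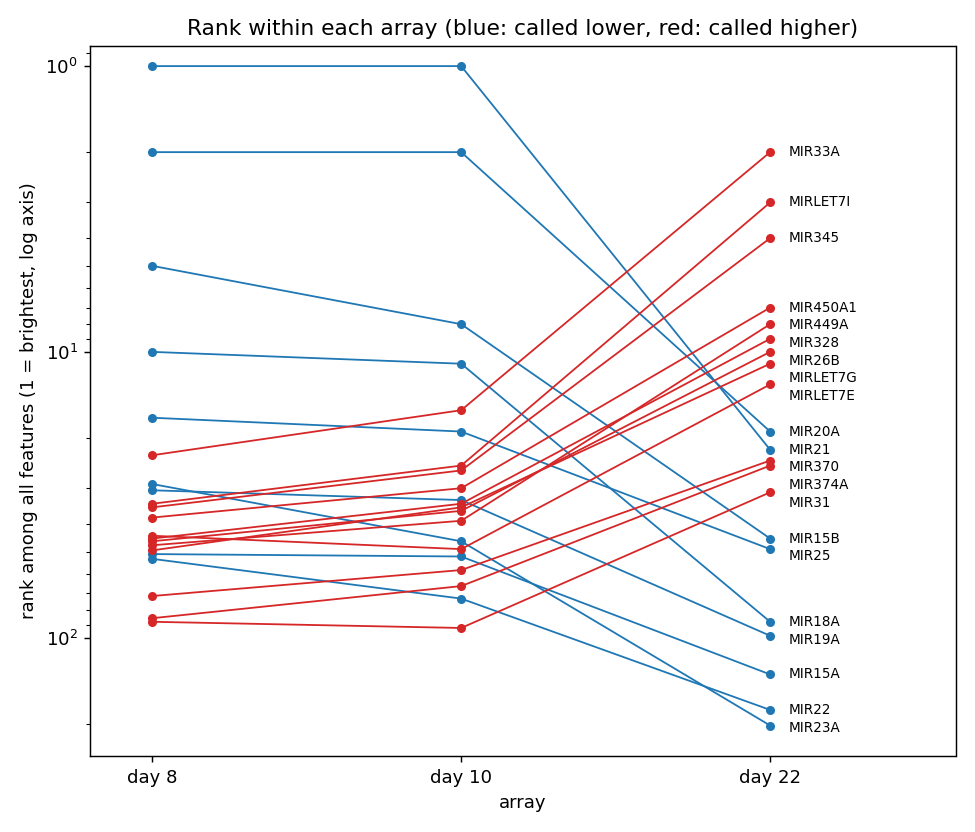
Rank within each array (vertical log axis, 1 being the brightest of 207 features) on days 8, 10 and 22 for the 21 named microRNAs that were called. The blue lines of those that fell and the red lines of those that rose cross after day 10, with MIR21 going from rank 1 to 22 and MIR33A from 23 and 16 to 2.

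Compared with the earlier part of the course, the day 22 levels lay at the edge. On the quantile-normalized scale all 21 features that rose lay above each array of days 0 to 6, day 0 being the array without cytokines. Of the 26 that fell, 23 lay below each of those arrays, including all named ones. The counts were the same against all 6 other arrays, but the calls themselves favoured values beyond the earlier arrays of the comparison. Over all 207 features, 54 (26.1%) lay above and 43 (20.8%) below all 6 others. These shares are no baseline for features picked by their call. Whether called features lay beyond days 0 to 6 more often than the rest was not tested. For MIRLET7I the highest level of days 0 to 6 was 9.00, and day 22 was 10.83. In units, however, MIRLET7I had 310, 838, 786 and 315 on days 0, 2, 4 and 6, of which those of days 2 and 4 exceed its 333 of day 22. MIR33A likewise had 686, 1406, 1022 and 461 units on those days against 468 on day 22. Against days 0, 2 and 4 the higher level of MIR33A on day 22 thus held on the normalized scale and not in units. The median spot stood at 112, 261 and 312 units on those days against 63 on day 22. The scale of each array is not known, so units do not order these days. MIR20A had 2258 to 12423 units on days 0 to 6 and 136 on day 22. The brightest feature of day 22 had 537 units, so a lower value in units was fixed by the range of that array. In the limma fit to 7 arrays in 3 groups, 8 of the 12 named risers and 6 of the 9 named features that fell passed.

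**Figure D5:**
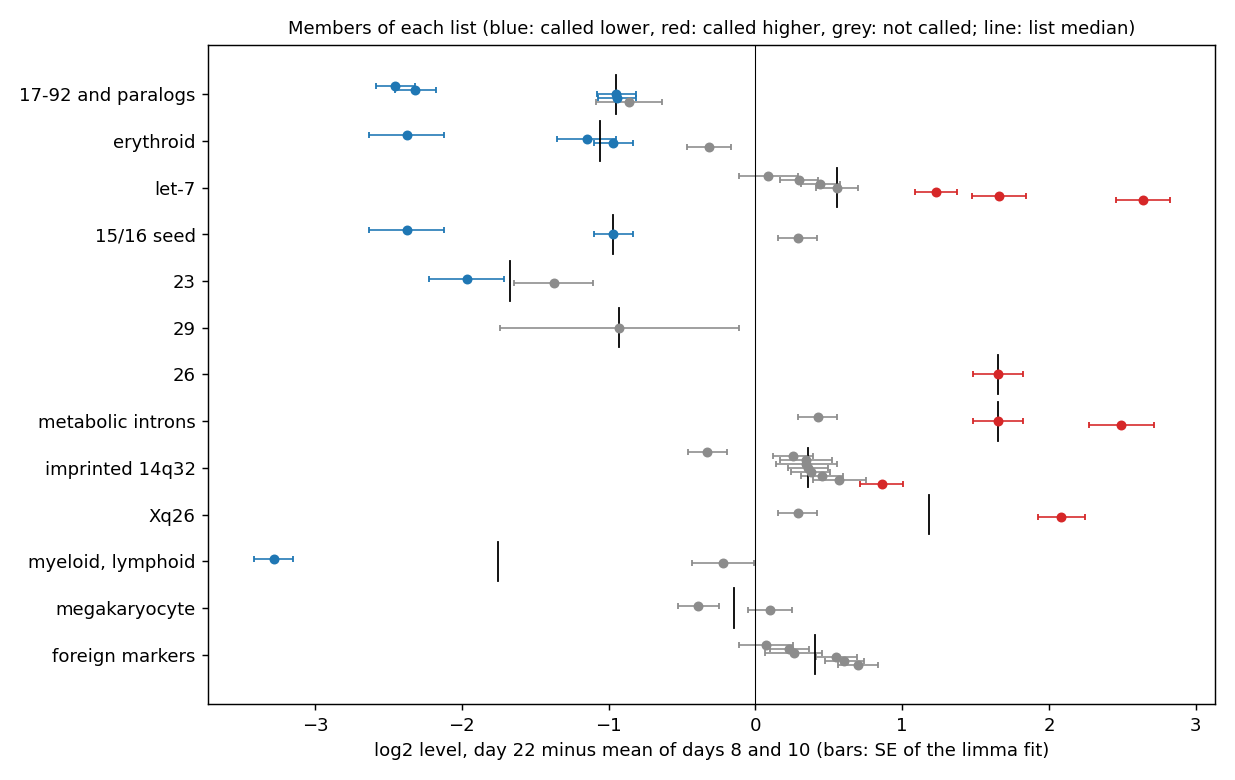
Difference between day 22 and the mean of days 8 and 10 (horizontal axis, log2, with the SE of the limma fit) for the measured members of each list, 1 row a list, with a line at the list median. The members of the 17-92 row lie between -2.45 and -0.86, those of let-7 between 0.09 and 2.64 and the foreign markers between 0.07 and 0.70.

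Other lists held mostly dim features. In the imprinted cluster of 14q32, known as silent outside embryonic, neural and some leukaemic cells, 9 of 40 listed genes were measured, 1 rose (MIR370) and 0 fell, a share of risers near the 10.1% of all features. Their median was 0.36, close to the 0.41 of the foreign markers, and they had 30.3 to 122 units on day 22. MIR21 fell in the myeloid and lymphoid list while MIR342, also a microRNA of white cells, was at -0.22 and did not pass. The megakaryocyte members MIR10A and MIR10B had differences of -0.39 and 0.10 and at most 38.7 units on any of the 3 arrays, so 0 of 2 passed.

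MIR29A stood apart from the rest because of day 10. This microRNA, which targets collagen genes and DNA methyltransferases, measured 113 ± 2.65 units on day 8, 476 ± 94.4 on day 10 and 92.7 ± 18.2 on day 22. Days 8 and 22 lay close together and day 10 far above both, and its difference of -0.93 ± 0.81 did not pass (SE, adjusted p = 0.494, limma, Benjamini-Hochberg). Without day 8 it was -1.72 and passed (adjusted p = 0.0396), and without day 10 it was -0.13 (adjusted p = 0.964, limma, Benjamini-Hochberg). It was the only named feature with day 10 at least 1 above day 8, at 1.60.

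Seed partners differed in their calls. Among 3 measured genes with the seed AUUGCAC, MIR25 fell, whereas MIR32, at -0.11, and the embryonic marker MIR367, at 0.07, did not pass. MIR32 had 20.7, 68.0 and 48.3 units and MIR367 27, 28.7 and 43.3, so MIR32 lay within the range of the foreign markers on days 8 and 22 and above it on day 10. Their mature strands differ from miR-25-3p at 9 and 10 of 22 positions. Whether these differences between partners exceed the error was not tested.

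Of the 46 named features that did not pass, 33 had positive differences up to 0.92 and 13 negative ones down to -1.37. The largest in size were MIR384 at 0.92, MIR346 at 0.85 and MIR448 at 0.76 on the higher side, with 92, 104 and 116 units on day 22. By adjusted p in limma, the foreign markers MIR373 and MIR372 were closer to passing than MIR384 and MIR346. On the lower side, after MIR23B, MIR29A and MIR93, came MIR339 at -0.54. The 26 unnamed features that passed, 9 higher and 17 lower, had differences of 0.85 to 2.61 and of -2.83 to -0.88, against 0.86 to 2.64 and -3.28 to -0.94 for the named ones.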

How the data were processed

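The deposited values are linear Cy3 intensity, per the labels (1 colour); from the values, each array's mean was subtracted by the authors or their software, since every column averages 0 within 0.005 units. The sources used here do not state scanner, background correction, scale or true zero. Of 621 rows, 201 had 1 symbol in the platform annotation, 0 several and 420 none; all 201 matched RefSeq (GRCh38.p14) by gene identifier unchanged.

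Values of 7 arrays (without day 15) were corrected by normexp with an offset of 50, turned to log2, quantile normalized and averaged over 3 spots in limma (version 3.58.1, R version 4.3.3). Offset and normexp shrink differences of dim features. Day 22 was then compared with the mean of days 8 and 10 by lmFit and eBayes on those 3 arrays, two-sided, Benjamini-Hochberg over 207 features, threshold 0.05. The fit alone was run on simulated normalized levels, with the same noise for all features and arrays. That run did not cover background correction, scaling between arrays or the narrower range of day 22. Ranks and units above the dimmest spot come from the deposited values. Figures used matplotlib 3.10.9 in Python 3.11.15.

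The comparison, lists and the rule for named genes were chosen with earlier results of these data known. The rule takes the 15 highest and 15 lowest named features, those that passed first, every measured list member and the 5 highest mean levels. Alternatives covered scaling, background, offset, spot averaging, a filter on dim features, a 7-array fit, ranks and each earlier array left out. The number of arrays limits the precision.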

Additional observations from a re-analysis of the deposited data

How the results depend on the processing

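No paired analysis was possible because each day has 1 array. The 26 features that fell became 13 with no scaling, 9 with the 75th percentile and 0 with the median of 3 spots, and the 21 that rose became 0, 0 and 0 (at an unadjusted p under 0.05 in limma, 2, 51 and 40 higher, and 35 lower with the median of spots); median centring gave 11 that rose. The 16 features at least 1 above both earlier arrays became 0 with no scaling, 0 with median centring and 1 with the 75th percentile. Taking the median of spots made days 8 and 10 equal in 6 features and lowered the borrowed degrees of freedom to 1.23; its 21 named differences kept their sign and had adjusted p of 0.0527 to 0.0829 (limma, Benjamini-Hochberg). Leaving out day 8 or day 10, in fits that assume the lone arrays vary like days 0 to 6, gave 11 to 15 that fell and 10 to 11 that rose, 27 to 28 and 17 to 19 features at least 1 from the remaining array, below and above. The other counts stayed within 1.5 times. Over 52 named features and 12 alternatives (606 values), 87 lost a call, 11 gained one and 16 changed sign, none of them a called feature. These 16 were, with no scaling, MIR98 at -0.26, MIR379 at -0.093, MIR367 at -0.093, MIRLET7C at -0.077, MIR424 at -0.063, MIR381 at -0.056, MIR371A at -0.036, MIR376C at -0.031 and MIR369 at -0.0028; with the 75th percentile, MIR377 at 0.15, MIR10A at 0.091, MIR342 at 0.066 and MIR339 at 0.0027; with median centring, MIR377 at 0.022; without day 10, MIR367 at -0.060 (0.20 without day 8); and without day 8, MIR98 at -0.065 (0.24 without day 10). The causes were not tested.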
